A study of Homo sapiens with 6 samples.

Results

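Laminin chains and the proteins that link laminin to its neighbours and to the cell were compared between 2 sorted populations of one breast cancer line. The 10 genes listed were 5 laminin chains (LAMA4, LAMA5, LAMB1, LAMB2, LAMC1), the nidogens NID1 and NID2, the proteoglycans HSPG2 and AGRN, and the receptor gene DAG1. They were taken by symbol from the deposited table, which held 9 of them among its 15024 rows, and all 9 passed the filter on low values. NID1 was not analysed here. The cells were of the human line MDA-MB-231, which stems from a triple-negative breast cancer and is mesenchymal in culture. All 6 samples were labelled Mll3-null, Mll3 being another name of the histone methyltransferase gene KMT2C. All had 10 µM forskolin, which activates adenylyl cyclase, for 14 days with fresh medium every other day. After that time they were sorted by flow cytometry into CD44+CD104high cells (called CD104high below, n = 3), a hybrid epithelial and mesenchymal state in the study's design, and CD44+CD104-/low cells (called CD104low, n = 3), its mesenchymal state. The labels speak of biological replicates without naming cultures, days or clones, so the spread between these samples may be partly technical, and untreated or wild-type cells were not analysed here.

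Laminins are secreted trimers of an alpha, a beta and a gamma chain that assemble into a sheet on the cell surface and so start a basement membrane. Nidogens tie that sheet to the collagen IV network, and the heparan sulfate proteoglycans perlecan (HSPG2) and agrin (AGRN) bind both networks. Dystroglycan, the product of DAG1, is made as one precursor that is cut into a matrix-binding and a membrane-spanning subunit, and its sugar chains bind the globular ends of laminin alpha chains, of agrin and of perlecan. The sorted protein, CD104, is integrin beta-4, which belongs to another laminin receptor, the one of hemidesmosomes.

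Reads on all 15024 genes of the deposited table numbered 49791498 to 60069719 per library, a sum that leaves out genes outside the table. ITGB4, the gene of the sorted protein, read 14508 to 19435 scaled reads in CD104high and 1333 to 2273 in CD104low, as the labels state. KMT2C itself read 3561 to 3952 and 2095 to 2814 scaled reads, and was called higher in CD104high by limma (log2 fold change 0.62, adjusted p = 0.0027). A whole-gene value cannot show a deletion of part of the gene. CD44, whose protein both gates share, read 22069 to 28210 in CD104high and 23282 to 25669 in CD104low, with overlap. VIM, KRT18 and EGFR, markers of the line, were all present. EPCAM, listed as low in the line, read 554 to 673 scaled reads in CD104high and 695 to 813 in CD104low. Its populations did not overlap, and it was not called (log2 fold change -0.32). ERBB2, listed as not amplified, read 7747 to 8564 and 6219 to 7012 scaled reads and was called higher (0.33). ESR1, PGR and CDH1 were not analysed here. Of 8 fibroblast markers 7 were in the table and 4 passed the filter and were tested. Of these 4, 3 were called higher in CD104high and 0 lower, where 21.8% of all tested genes were higher and 21.6% lower. PDGFRB and COL1A2 were among the 3 (log2 fold changes of 1.07 and 1.73). The fibroblast markers summed to 3769 to 4787 scaled reads in CD104high and 2047 to 2540 in CD104low, while PDGFRA, DCN and THY1 lay between 1.01 and 13.1 in every library, THY1 being lower in CD104high (mean 2.12 against 8.9, no overlap, below the filter and not tested), and FAP was not analysed here. Of 6 endothelial markers 1 was tested (KDR, not called), and the 6 leukocyte markers were not analysed here. The part of fibroblast genes in the results below was not tested.

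CD104high cells had more RNA of nearly all these genes. Of the 9 genes 8 were higher and 0 lower in CD104high by limma's test (adjusted p under 0.05 over all 14420 genes tested), where 43.4% of all tested genes were called in either direction, 21.8% higher and 21.6% lower. The median log2 fold change of the 9 was 0.69, against 0.02 for all tested genes. In 8 of the 9 the populations did not overlap and CD104high was higher, where 54.3% of all tested genes had no overlap in either direction and 27.4% had none with CD104high higher. HSPG2, LAMA5 and LAMB2 rose most among the well-read genes, LAMB1 rose least, and NID2 did not pass. One of the 8, LAMA4, had about as few reads as NID2 and passed the filter through its CD104high libraries, so the count says little about it. In bulk RNA, fewer cells expressing a gene and less RNA per cell cannot be told apart.

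Of the laminin alpha chains, LAMA5 (ENSG00000130702.15; GRCh38 chromosome 20, 62307955 to 62367312, minus strand) encodes the chain typical of mature epithelial basement membranes. It read 20982, 24898 and 23411 scaled reads in CD104high and 8892, 12194 and 9850 in CD104low. Every CD104high library was well above every CD104low library, and replicate 2 was the highest of each population. LAMA5 rose 2.25-fold, with a log2 fold change of 1.17 (SE 0.12, 95% interval 0.91 to 1.43, adjusted p = 0.0003). LAMA4 (ENSG00000112769.20; chromosome 6, 112108760 to 112254939, minus strand) encodes a shortened alpha chain best known from vessel walls and mesenchymal tissue. It read 20.1, 15.9 and 20.3 scaled reads in CD104high and 4.02, 6.07 and 11.2 in CD104low, which rest on 22, 18 and 20 reads and on 4, 6 and 10 reads. LAMA4 was therefore near the lower end of what was measured in both populations, and its log2 fold change of 1.38 had a 95% interval of 0.36 to 2.39 (SE 0.45, adjusted p = 0.0344). Leaving out any single library except replicate 3 of CD104low ended its call, with adjusted p = 0.0632 to 0.107, and quantile normalization (0.0844), DESeq2 (0.0685) and the correction for length and GC content (0.0521) did so too. In the authors' deposited table LAMA4 had an adjusted p of 0.066.

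The beta chains differed in how far they rose. LAMB2 (ENSG00000172037.14; chromosome 3, 49121114 to 49133118, minus strand) encodes the beta chain prominent at neuromuscular junctions and in the kidney filter. It read 33275, 35683 and 37535 scaled reads in CD104high and 16154, 21755 and 16089 in CD104low. The populations were far apart, although replicate 2 of CD104low stood above the other CD104low libraries. LAMB2 rose 1.99-fold (log2 fold change 0.99, SE 0.12, 95% interval 0.73 to 1.26, adjusted p = 0.0005). LAMB1 (ENSG00000091136.14; chromosome 7, 107923799 to 108003255, minus strand) encodes the most widespread beta chain. It read 11335, 12789 and 10910 scaled reads in CD104high and 8928, 9909 and 9922 in CD104low. The groups were apart by less than the range within CD104high, and the rise was 1.22-fold (log2 fold change 0.28, SE 0.08, 95% interval 0.11 to 0.46, adjusted p = 0.0179). LAMB1 lost its call without replicate 2 of CD104high (adjusted p = 0.0601), without replicate 1 of CD104low (0.0761), in limma without the intensity trend (0.0537) and when length and GC content were corrected for, where its log2 fold change was 0.11 (0.209).

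LAMC1 (ENSG00000135862.6; chromosome 1, 183023460 to 183145592, plus strand) encodes the gamma chain shared by most laminins. It read 18427, 21224 and 18935 scaled reads in CD104high and 11803, 14641 and 14077 in CD104low. All CD104high values lay above all CD104low values, and LAMC1 rose 1.45-fold (log2 fold change 0.54, SE 0.09, 95% interval 0.32 to 0.75, adjusted p = 0.0024). NID2 (ENSG00000087303.18; chromosome 14, 52004803 to 52069228, minus strand) encodes a nidogen, the link between laminin and collagen IV. It read 11.0, 9.71 and 17.2 scaled reads in CD104high and 22.1, 12.1 and 13.5 in CD104low. These values overlapped, and the log2 fold change of -0.30 had a 95% interval from -1.23 to 0.62 (adjusted p = 0.578), so a difference was not detectable at this depth.

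Perlecan showed the largest difference of the 9 genes. HSPG2 (ENSG00000142798.20; chromosome 1, 21822245 to 21937297, minus strand) encodes this large heparan sulfate proteoglycan, which also holds growth factors in the matrix. It read 36676, 36608 and 30885 scaled reads in CD104high and 9218, 12955 and 9975 in CD104low. The lowest CD104high library was above the highest CD104low library by more than either population's range. HSPG2 rose 3.27-fold (fold 95% interval 2.68 to 3.98), with a log2 fold change of 1.71 (SE 0.13, adjusted p = 0.000202). AGRN (ENSG00000188157.15; chromosome 1, 1020123 to 1056118, plus strand) encodes agrin, which gathers acetylcholine receptors at the neuromuscular junction and binds laminin and dystroglycan elsewhere. It read 50729, 52126 and 51438 scaled reads in CD104high and 31415, 36500 and 28533 in CD104low. The CD104high libraries were nearly equal, with a coefficient of variation of 1.36% against 12.5% in CD104low, and AGRN rose 1.61-fold (log2 fold change 0.69, SE 0.09, adjusted p = 0.000716).

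DAG1 (ENSG00000173402.12; chromosome 3, 49468703 to 49535618, plus strand) encodes dystroglycan, the cell's receptor for several of these proteins. It read 21363, 22431 and 21050 scaled reads in CD104high and 16064, 15832 and 14570 in CD104low. Both populations were tight and did not overlap, and DAG1 rose 1.4-fold (log2 fold change 0.48, SE 0.06, 95% interval 0.34 to 0.62, adjusted p = 0.000716). Of the 9 genes, 7 were higher at an adjusted p under 0.05 in the authors' deposited table, where 23.1% of 14732 genes with an adjusted p were. The exceptions in the authors' deposited table were LAMA4 and NID2 (adjusted p = 0.683).

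**Figure D1:**
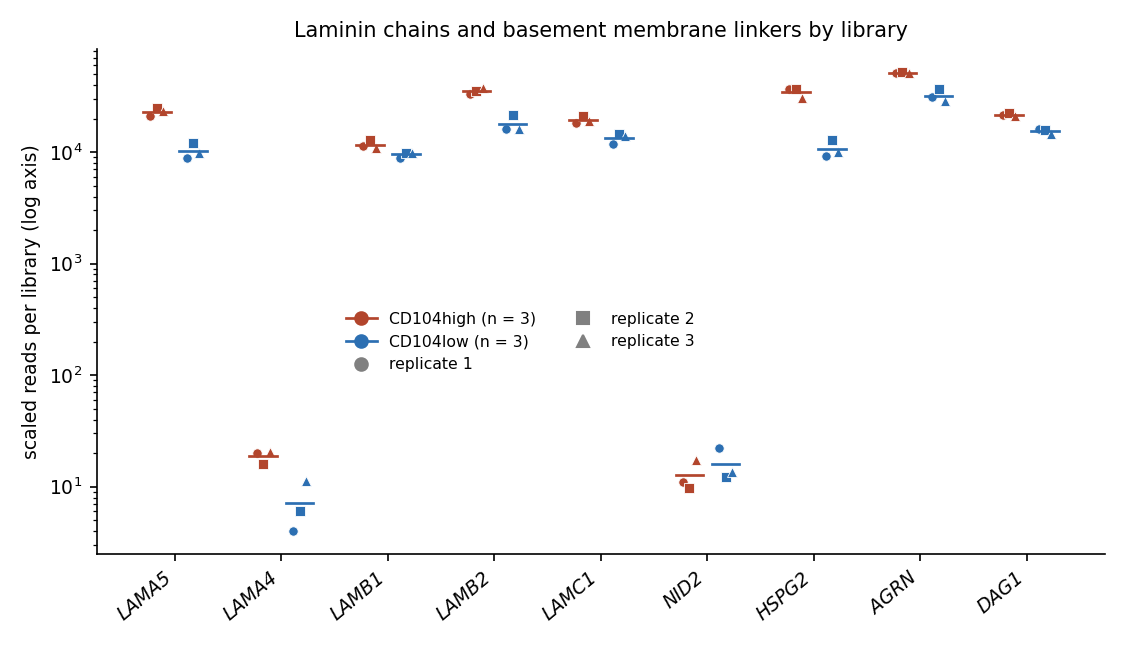
Scaled reads (log axis) of the 9 genes in each library, with CD104high in red and CD104low in blue, marker shape giving the replicate and horizontal lines the mean of 3 libraries. HSPG2, LAMA5 and LAMB2 show the widest gaps, while LAMA4 and NID2 lie between 4.02 and 22.1 scaled reads.

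Transcript length and base content were set beside these differences as a description. The longest annotated transcripts of HSPG2, LAMA5, AGRN and LAMB2 had 14327, 11426, 7394 and 5674 bases and GC contents of 64.5%, 66.4%, 67.5% and 60.3%. AGRN had the highest GC content of the 9, with a log2 fold change of 0.69. LAMA4, which had few reads in every library, had the lowest at 46.6%, with 1.38. LAMB1, with 5766 bases, was longer than LAMB2 and rose least of the called genes. DAG1, LAMB1 and LAMC1 had GC contents of 55.1%, 49.5% and 48.7% and log2 fold changes of 0.48, 0.28 and 0.54. Each of these was below the 1.71, 1.17, 0.69 and 0.99 of HSPG2, LAMA5, AGRN and LAMB2, whose GC contents were higher. Of 283 tested genes with a transcript of at least 5000 bases and a GC content of at least 60%, a bound chosen after the values were seen, 153 (54.1%) were called higher and 16 lower, with a median log2 fold change of 0.40. With both properties fitted and subtracted per library, 6 of the 9 genes were called higher, against 19.7% of all tested genes. The log2 fold changes were then 1.21 for HSPG2, 0.73 for LAMA5, 0.70 for LAMB2, 0.33 for AGRN, 0.31 for LAMC1 and 0.23 for DAG1, and these 6 kept their calls (adjusted p = 9.09e-05 to 0.0204). LAMA4 and LAMB1 lost theirs. Whether the correction removes a property of the libraries or of the cells cannot be told apart.

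**Figure D2:**
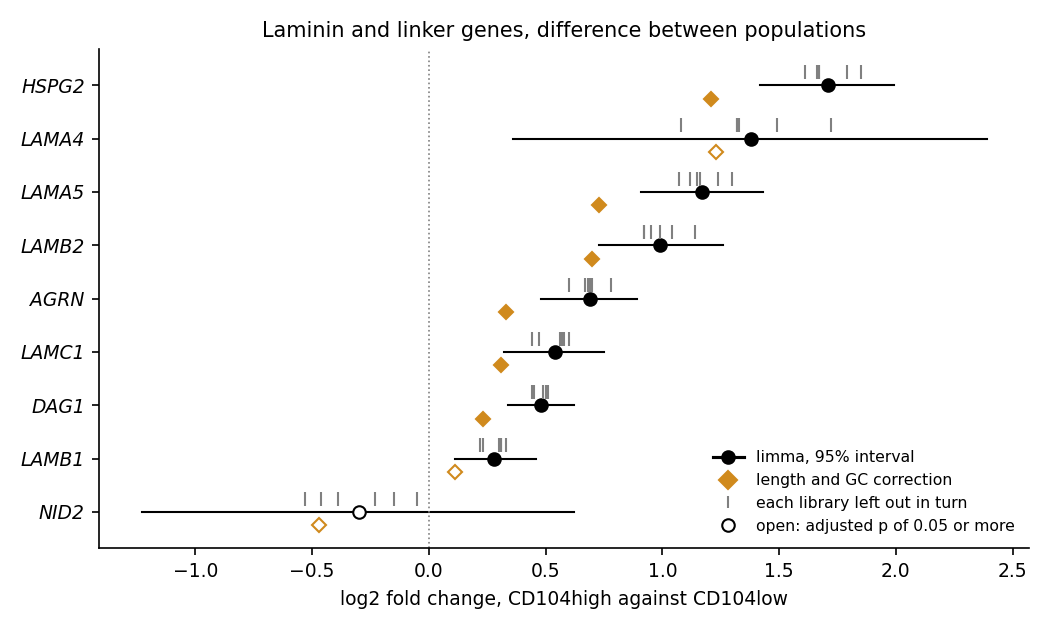
Log2 fold change of CD104high against CD104low for the 9 genes, with limma's estimate and 95% interval (circles), the estimate with the length and GC correction (diamonds) and the estimates with each library left out in turn (ticks); open symbols did not pass. HSPG2 lies at 1.71 and at 1.21 with the correction, and LAMB1 at 0.28 and 0.11.

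The starts of 4 of these genes are shown because HSPG2, LAMA5 and LAMB2 had the largest rises among the well-read genes and LAMB1 the smallest. The sequences are RefSeq's on GRCh38.p14, 250 bases that end just before RefSeq's annotated start. They run 5′ to 3′ on the gene's strand, the minus strand for all 4. For LAMB2 and LAMB1 that start lies inside the gene span given above, which is GENCODE's. Capitals mark GGGCGG, the GC box bound by SP1, or TGACG, the core of the CREB site, on either strand, with overlapping matches run together.
HSPG2, chr1:21937311-21937560: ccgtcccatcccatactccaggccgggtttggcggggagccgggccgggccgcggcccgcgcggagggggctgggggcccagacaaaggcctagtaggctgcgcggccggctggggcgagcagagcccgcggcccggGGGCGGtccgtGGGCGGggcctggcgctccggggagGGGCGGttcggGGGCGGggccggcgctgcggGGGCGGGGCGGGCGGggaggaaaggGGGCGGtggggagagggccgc
LAMA5, chr20:62367313-62367562: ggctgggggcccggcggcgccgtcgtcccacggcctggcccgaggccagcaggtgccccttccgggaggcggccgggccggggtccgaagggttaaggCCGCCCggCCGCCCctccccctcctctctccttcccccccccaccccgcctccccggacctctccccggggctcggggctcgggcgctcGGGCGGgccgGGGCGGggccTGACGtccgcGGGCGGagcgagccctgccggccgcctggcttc
LAMB2, chr3:49133051-49133300: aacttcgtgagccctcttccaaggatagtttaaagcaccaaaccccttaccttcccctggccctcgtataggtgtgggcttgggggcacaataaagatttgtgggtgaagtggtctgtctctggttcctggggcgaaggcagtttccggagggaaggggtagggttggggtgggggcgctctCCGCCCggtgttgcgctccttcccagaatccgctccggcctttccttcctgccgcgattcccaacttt
LAMB1, chr7:108003162-108003411: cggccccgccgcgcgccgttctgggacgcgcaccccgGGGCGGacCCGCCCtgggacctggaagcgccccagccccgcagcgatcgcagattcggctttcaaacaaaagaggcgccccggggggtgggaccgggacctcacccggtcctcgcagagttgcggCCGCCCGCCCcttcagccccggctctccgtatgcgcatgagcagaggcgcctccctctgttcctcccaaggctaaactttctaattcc
These stretches hold 8, 5, 1 and 4 GC boxes for HSPG2, LAMA5, LAMB2 and LAMB1, and 1 CREB core, in LAMA5.

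Over windows of 300 bases, which add 50 bases after the start, 8 of the 9 genes had an entry. DAG1 had 2, which overlap each other, making 9 windows. AGRN had no entry. GC boxes stood in 8 of the 9 windows, among them that of NID2, which was not called and held 4. Of all 35116 windows of this length, whatever their GC content, 45.0% had a GC box. The exception among the 9 was LAMA4, whose window had a GC content of 51.3% and 8 CG dinucleotides. The windows of HSPG2 and LAMA5 had GC contents of 83.3% and 82.7%, above 99.3% and 99.1% of all windows. LAMB2, with the third largest rise of the well-read genes, had a window at the median of all windows (58.7% GC). The CREB core TGACG was found in 2 of the 9 windows, those of LAMA4 and LAMA5, and in 24.6% of all windows. CACCTG, the E-box bound by SNAI and ZEB factors, was found in LAMA5 alone of the 9 and in 20.6% of all. The AP-1 motif TGANTCA (7.7% of all windows), the MYC E-box CACGTG (7.3%), the TEAD motif GGAATG (14.0%) and TATAAA (11.5%) were in none of the 9. Each motif was searched on both strands, and a match describes letters and not binding.

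The genomic spans of some members, introns included, overlap those of other genes. Whether they share transcript sequence was not tested. The sources used here do not say whether reads of the 2 strands were counted apart. LAMA5 overlaps ADRM1 on the other strand at its far end, and ADRM1 read 5806 to 6441 scaled reads in CD104high and 8545 to 10029 in CD104low, the opposite order. LAMB1 overlaps DLD, which read 5009 to 6300 and 5925 to 7058 scaled reads. HSPG2 overlaps LDLRAD2, with 59.8 to 83.8 and 16.2 to 33.2 scaled reads, far below HSPG2. NID2 overlaps RTRAF, which read 6794 to 8830 scaled reads in CD104high and 9464 to 12805 in CD104low, far above the 9.71 to 22.1 of NID2 itself.

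Per kilobase of the longest annotated transcript, AGRN and LAMB2 were the highest of the 9 genes in both populations. In CD104high the levels in scaled reads per kilobase were 6956 ± 94.5 for AGRN, 6256 ± 376 for LAMB2, 3708 ± 124 for DAG1, 2476 ± 189 for LAMC1, 2424 ± 232 for HSPG2, 2025 ± 171 for LAMB1 and 2021 ± 173 for LAMA5 (SD, n = 3 each). Single libraries of LAMC1 and HSPG2 overlapped, as did those of HSPG2 and LAMB1 and those of LAMB1 and LAMA5. LAMA4 (2.87 ± 0.381) and NID2 (2.63 ± 0.837) also overlapped there. In CD104low the levels were 4348 ± 546 for AGRN, 3172 ± 573 for LAMB2, 2657 ± 138 for DAG1, 1712 ± 190 for LAMC1, 1663 ± 98.9 for LAMB1, 903 ± 149 for LAMA5 and 748 ± 138 for HSPG2 (SD, n = 3 each). LAMC1 overlapped LAMB1, while NID2 (3.31 ± 1.13) lay above LAMA4 (1.09 ± 0.567). The ranges of LAMA5 and HSPG2 overlapped, but LAMA5 lay above HSPG2 within each CD104low library. Compared within each library, HSPG2 thus stood below LAMB1 in all of CD104low and above it in all of CD104high, where their ranges overlapped. The transcript that was read need not be the longest one, so these levels are approximate.

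Among the alpha chains per kilobase, LAMA5 made up 84.4% ± 1.96 (SD, n = 3) of the summed level in CD104high, against 80.0% ± 1.43 (SD, n = 3) for CD104low. LAMA3, the alpha chain of hemidesmosomes, held nearly all the rest, with 15.1% ± 2.01 and 19.0% ± 1.41, and LAMA4 held 0.121% and 0.0967%. LAMB2 had the highest mean share of the beta chains, at 56.4% ± 0.577 of the beta level in CD104high and 42.4% ± 5.27 in CD104low, whose replicate 2 was the highest at 48.3%. In replicate 3 of CD104low LAMB3 lay above LAMB2, at 2899 against 2836 scaled reads per kilobase, and the shares of these 2 chains overlapped in that population. LAMB3, the hemidesmosomal beta chain, had 25.2% ± 2.04 and 35.2% ± 4.58, and LAMB1 had 18.3% ± 1.95 and 22.3% ± 0.723 (SD, n = 3 each).

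**Figure D3:**
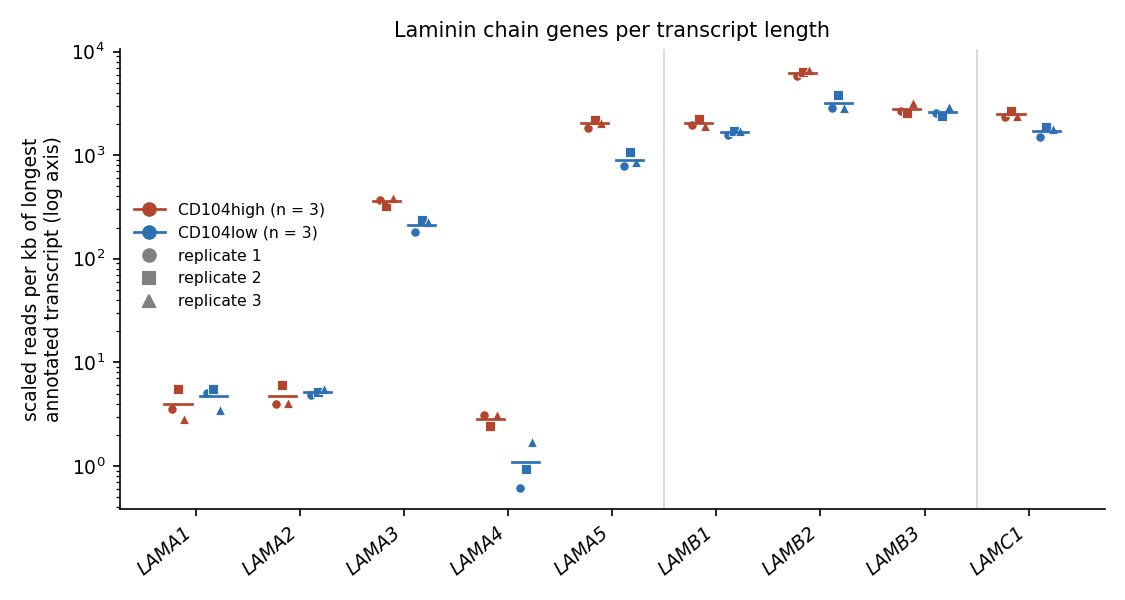
Scaled reads per kilobase of the longest annotated transcript (log axis) for 9 laminin chain genes, CD104high in red and CD104low in blue, with replicates as marker shapes and the mean of 3 libraries as lines. LAMA5 leads the alpha chains, LAMB2 leads the beta chains except in replicate 3 of CD104low, where LAMB3 is above it, LAMB3 differs little between populations, and LAMA1, LAMA2 and LAMA4 lie below 10 per kilobase.

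Ratios taken within a library compare the chains with each other. An exact two-sided permutation test over the 6 libraries was made for each of 8 ratios, of which 7 are given here. Its smallest possible p is 0.1, which was 0.13 after adjustment over the 8, so none passed. The log2 ratio of LAMB1 to LAMB2 was -1.55, -1.48 and -1.78 in CD104high and -0.86, -1.13 and -0.70 in CD104low, with no overlap (difference -0.71, exact p = 0.1). Reads of LAMB1 were on average 0.329 of those of LAMB2 in CD104high and 0.537 in CD104low. Relative to LAMC1, both LAMA5 (difference of the log2 ratio 0.64) and LAMB2 (0.46) were higher and LAMB1 was lower (-0.25) in CD104high, each without overlap and each with exact p = 0.1. LAMA5 gave fewer reads than LAMC1 in every CD104low library and more in every CD104high library, with mean ratios of 0.76 and 1.18. Of the ratios given, that of HSPG2 to AGRN had the largest difference, with mean ratios of 0.673 in CD104high and 0.331 in CD104low (log2 difference 1.02, exact p = 0.1). The 2 ratios with LAMA4 overlapped between the populations (exact p = 0.8 against LAMA5 and 0.2 against LAMC1). With the length and GC correction the 5 ratios given without overlap kept their direction, and that of LAMA5 to LAMC1 fell from 0.64 to 0.42.

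**Figure D4:**
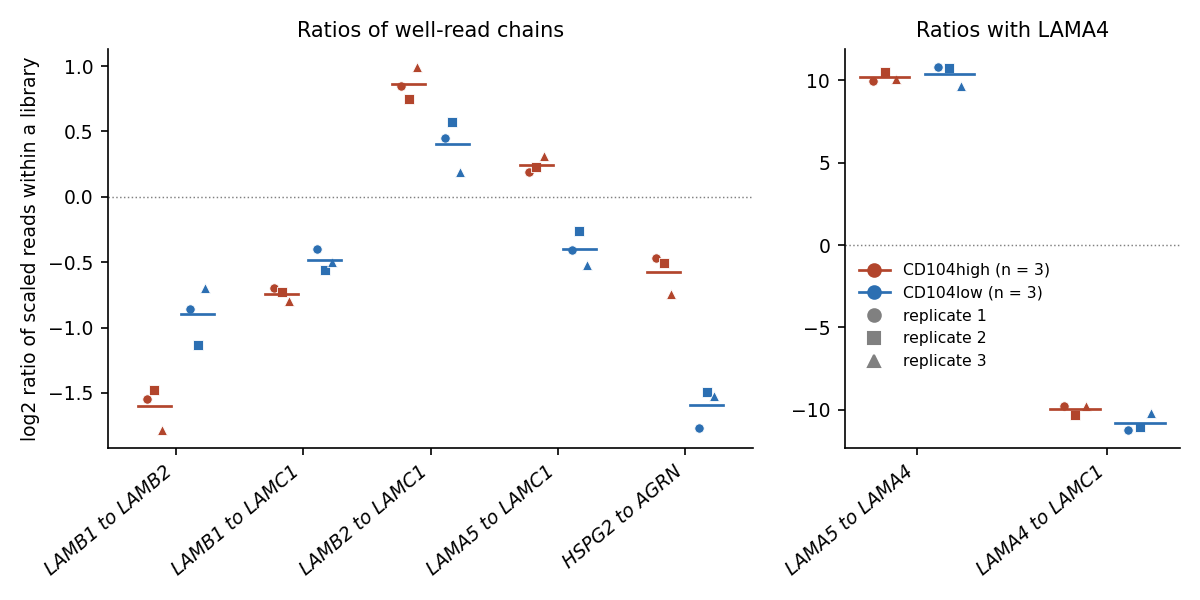
Log2 ratios of scaled reads of 2 genes within each library, CD104high in red and CD104low in blue, with replicates as marker shapes and means of 3 libraries as lines; the panels have separate axes. The populations are apart for LAMB1 to LAMB2, for HSPG2 to AGRN and for LAMA5 to LAMC1, and overlap for the ratios with LAMA4.

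Several of these genes had the same library at the top of a population. Replicate 2 of CD104low was the highest CD104low library in 5 of the 8 called genes and the lowest in 0, while over all tested genes it was the highest in 34.5% and the lowest in 43.0%. ITGB4 was also highest there among CD104low libraries, at 2273 against 1492 and 1333 scaled reads. Without this library the log2 fold changes were 1.85 for HSPG2 and 1.14 for LAMB2. Replicate 2 of CD104high was likewise the highest of its population in 5 of the 8 and the lowest in 1, against 33.3% and 35.2% of all tested genes. The genes whose values followed HSPG2 most closely over the 6 libraries were AP1G2, CCDC40 and C22orf46, with Pearson's r of 0.9995, 0.9989 and 0.9989 on log2(value + 1). The 6 points fall into 2 clusters by population, and 1128 of 12510 genes had an r of at least 0.95, so this is a description only.

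The other genes of the basement membrane did not all follow. Among further laminin chains, LAMA3 rose (log2 fold change 0.76, adjusted p = 0.00123), while LAMB3 was at 0.10, LAMA2 at -0.18 and LAMA1 at -0.26 and did not pass. Of 18 other basement membrane components 8 rose and 0 fell, where 21.8% of all tested genes rose and 21.6% fell, and the list's median was 0.75. COL4A4, a chain of the collagen IV network to which nidogen and perlecan bind, rose from 791 to 1324 scaled reads in CD104low to 3295 to 4025 in CD104high (log2 fold change 1.84). COL7A1, the collagen of anchoring fibrils, rose by 0.98 on the log2 scale. The main collagen IV chains COL4A1 (0.06) and COL4A2 (0.11) did not pass; both were chosen for naming once their values had been seen. Without replicate 1 of CD104low 4 of these 18 genes rose and 0 fell, where 2092 of all 14325 tested genes rose and 2009 fell. Corrected for length and GC content, 6 of the 18 rose and 3 fell, where 2837 of all 14420 tested genes rose and 3006 fell.

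Of 12 laminin receptor genes outside dystroglycan 5 were higher and 2 lower, where 21.8% of all tested genes were higher and 21.6% lower, and the list's median was 0.12. ITGB4, one of the 5, was the sorted gene, so its call and its log2 fold change of 3.30 are set by the sort. ITGA6, its partner, rose by 1.26. BCAM, a receptor for laminins with the LAMA5 chain, named after its values were seen, read 6862, 7892 and 7353 scaled reads in CD104high and 3152, 4580 and 3285 in CD104low. Its log2 fold change of 1.02 (adjusted p = 0.000747) was near that of LAMA5, and its highest CD104low value was again in replicate 2. RPSA, a ribosomal protein also described as a laminin receptor, fell by 0.64 on the log2 scale (adjusted p = 0.00206), with near-identical pseudogenes that may share its reads. SDC4, a syndecan, fell by 0.32 (adjusted p = 0.0159, and 0.0672 without replicate 1 of CD104low). MCAM, a receptor for laminins with the LAMA4 chain, also named after its value was seen, had a log2 fold change of -0.13 (adjusted p = 0.178). Corrected for length and GC content, 6 of the 12, again with ITGB4 among them, were higher and 4 lower. Over all 14420 tested genes, 2837 were then higher and 3006 lower.

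Partners of dystroglycan inside and at the membrane gave 2 rises and 0 falls among 8 tested, a share of rises near the 21.8% of all tested genes. UTRN, the dystrophin relative utrophin that ties dystroglycan to actin, read 8488, 8066 and 7417 scaled reads in CD104high and 4346, 5306 and 5531 in CD104low (log2 fold change 0.66, adjusted p = 0.00121). SSPN, which encodes sarcospan of the same complex, rose by 1.09 on the log2 scale (adjusted p = 0.00289). The list's median was 0.20.

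Enzymes that build the laminin-binding sugar of dystroglycan gave no more calls than genes at large, 2 of 17 being higher and 3 lower, against 21.8% and 21.6% of all tested genes, with a median of -0.04. POMT1, a subunit of the transferase that adds the first mannose, rose by 0.32, and B4GAT1, which primes the laminin-binding chain, by 0.29 (adjusted p = 0.0186). B4GAT1 lost its call without any one of 4 libraries (replicates 1 and 2 of CD104high, 1 and 3 of CD104low; adjusted p = 0.059 to 0.0689). DPM1 and DPM3, subunits of the synthase that supplies mannose, fell by 0.67 and 0.63, and RXYLT1, named after its value was seen, fell by 0.60. Corrected for length and GC content, 3 of the 17 were higher and 4 lower, where 2837 of all 14420 tested genes were higher and 3006 lower. DPM1 then had a log2 fold change of -0.25.

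Perlecan and agrin carry heparan sulfate, and of 17 tested genes that make or edit it 5 rose and 3 fell, shares near the 21.8% and 21.6% of all tested genes, with a median of 0.10. XYLT2, which starts the chain on the core protein, rose by 0.41 (adjusted p = 0.00252). HS3ST3A1, a sulfotransferase, rose from 25.7 ± 4.06 scaled reads in CD104low to 64.6 ± 10.4 in CD104high (SD, n = 3 each). EXTL2 fell by 0.47 and HS2ST1, another sulfotransferase, by 0.31 (adjusted p = 0.0135, and 0.0613 without replicate 1 of CD104low). Corrected for length and GC content, 2 of the 17 rose and 4 fell, where 2837 of all 14420 tested genes rose and 3006 fell. The agrin receptor genes LRP4 and MUSK, at -0.19 and -0.93, did not pass. MUSK rested on 8, 4 and 14 reads in CD104high and 17, 14 and 12 in CD104low, and passed the filter through its CD104low libraries. Of these 2 receptor genes, 1 was called lower once length and GC content were corrected for.

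**Figure D5:**
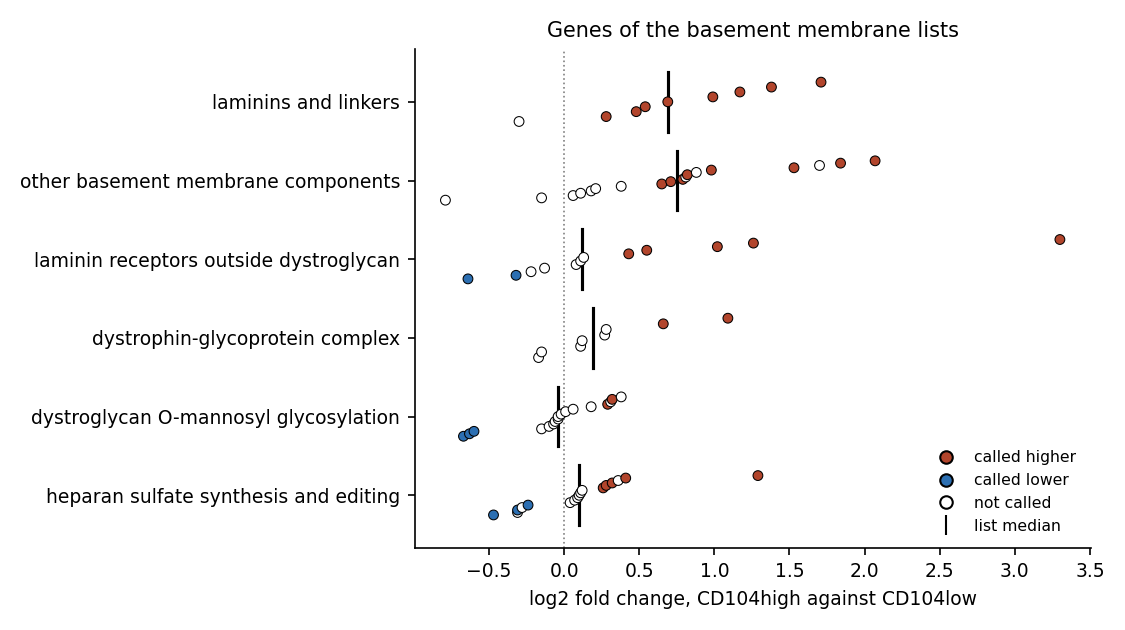
Log2 fold change of CD104high against CD104low for each tested gene of 6 lists, filled red where called higher, blue where called lower and open where not called, with the list median as a bar. The 9 laminin and linker genes have a median of 0.69 and the other basement membrane components 0.75, while medians of the receptor, dystrophin-complex, glycosylation and heparan sulfate lists lie between -0.04 and 0.20.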

How the data were processed

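RNA sequencing of 6 samples was used. Per the submitters' processing notes, Salmon 1.3.0, DESeq2, FastQC and the build GRCh38 were used; the sources used here do not give the annotation, filters or strandedness. The authors deposited a read signal per gene and library that behaves as counts divided by 1 size factor: 100% of values in each library were whole multiples (within 0.01) of the value of 1 read. The authors' log2 fold changes and p-values were also deposited, per the file headers.

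Values of at least 10 in at least 3 samples were required. The main test was limma 3.58.1 (R 4.3.3) with an intensity trend on log2(value + 1), population as the only term, Benjamini-Hochberg adjustment over all genes and a threshold of 0.05. Fold changes on this scale understate changes of low genes. Recovered whole reads entered edgeR 4.0.16 and DESeq2 1.42.0 as alternatives, with other scalings, filters, pseudocounts, a replicate block, left-out libraries and a spline correction for transcript length and GC content (GENCODE 29, 99.8% of genes matched). Only the main limma fit and limma with the length and GC correction were run on simulated data. Those data held no effect of length or GC content, so they could not check its removal.

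The members and lists were chosen with earlier results of these data known. Named genes were all members, ITGB4, CD44, KMT2C, LAMA3, LAMB3, up to 2 called genes of each list in each direction, and the 3 genes most like the member with the largest difference; others are marked as chosen later. One further item is not reported here. Promoters were RefSeq's (GRCh38.p14).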

Additional observations from a re-analysis of the deposited data

How the results depend on the processing

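The count of 8 higher genes of 9 was 6 to 8 over 18 alternatives, and 0 were lower in each of them. It was 8 with the replicate block, 7 with the block and the length and GC correction, 6 with that correction alone, and 6 to 8 without single libraries (6 when CD104high lost replicate 2 or CD104low lost replicate 1). HSPG2, LAMA5, LAMB2, LAMC1, AGRN and DAG1 kept direction and call in all 18; the 13 lost calls were of LAMA4 and LAMB1. A value of at least 50 in 3 samples left LAMA4 and NID2 out. Over all tested genes, without single libraries 2092 to 3198 were called higher and 2009 to 3197 lower, the lowest without replicate 1 of CD104low. The ratio of LAMA5 to LAMA4 (-0.20) turned to 0.40 with a pseudocount of 10, which exceeds some LAMA4 values. CD44 (0.05) was -0.04 with the length and GC correction, with and without the block, and -0.03 to 0.15 without single libraries (negative without replicate 3 of CD104high), and LAMB3 (0.10) was -0.11 with the correction, with and without the block; neither passed.

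Ratios with NID1 were not run. Replicate numbers are shared by the populations, but no label says that a number marks a shared culture or day. The main test therefore had no block. Deviations of same-numbered libraries correlated at 0.084, 0.359 and 0.324 over genes, and each library correlated best with its own number. The samples may thus be paired, which the labels do not settle. The replicate block raised the calls over all genes to 4047 higher and 3829 lower. With few reads, LAMA4 and NID2 limit what can be said of them.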
